A study of Mus musculus with 6 samples.

Results

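The R1 enhancer and the CTCF-binding site HS-29 lie side by side upstream of the mouse α-globin genes, and the Tri-C contacts that touch either of them are described here. R1 was taken as the NlaIII restriction fragments with a midpoint from 32145001 to 32146500 of chromosome 11 (mm9) and HS-29 as those from 32146501 to 32149000. This gave 9 R1 fragments and 11 HS-29 fragments, so 20 fragments of the 893 in the α-globin region from 32070001 to 32250000 and of 88602 on chromosome 11 in the deposited tables. Both spans lie within *Nprl3*, which runs on the minus strand from 32125628 to 32167707. They are intronic apart from an *Nprl3* exon from 32148145 to 32148226, which one annotated transcript extends to start at 32147779. The positions of R1 and HS-29 are known here only to the nearest kb, and the divide between them falls in the fragment from 32146417 to 32146598, whose midpoint lies just on the HS-29 side. On the outer edges, the fragments 32144808-32145013 and 32148971-32149124 were left out because their midpoints lie outside the spans.

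Contacts were measured in 6 samples of primary Ter119+ erythroid cells, 3 wild type (WT) and 3 D3839, isolated from the spleens of C57BL/6 females after phenylhydrazine, a drug that destroys red cells and so fills the spleen with erythroid precursors. The age of the mice was not given in the sources used here. D3839 mice carry small deletions of the core CTCF motifs of HS-38 and HS-39. These sites were read together, at 7 to 8 kb before the R1 bin, and R1 and HS-29 themselves are intact in both genotypes. Each sample was captured from 2 viewpoints, the R2 enhancer, which lies just beyond HS-29, and the *Mpg* promoter, which lies 19 kb before R1. The labels name the replicates biological without saying which animals they came from, so p-values measure the spread between these samples. Contact counts hold no expression markers, so the cell type could not be checked. The library preparation kit differed between WT and D3839, so the effects of kit and genotype cannot be told apart in any difference between them.

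An enhancer is a stretch of regulatory DNA that binds transcription factors and raises transcription of a gene at a distance. R1 is one of the α-globin enhancers, with R2, R3, Rm and R4, which erythroid factors such as GATA1 and the TAL1 complex occupy in red cell precursors. CTCF is a zinc finger protein that binds a directional motif and can halt cohesin, the ring-shaped complex that is thought to extrude chromatin loops, so that pairs of CTCF sites often mark the edges of interaction domains. HS-29 is a CTCF site inside the domain, between R1 and R2, whereas HS-38 and HS-39 lie at its upstream edge. In Tri-C, a chromosome conformation capture method, a read must hold the viewpoint and more than one further restriction fragment, called reporters, so each counted contact is a pair of fragments ligated together with the viewpoint in one cell.

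The sequences on which the description of the spans turns follow, read from the mm9 sequence of chromosome 11 on the plus strand. The first is the 300-base stretch of R1, at chr11:32145661-32145960, that ends with the R1 fragment of most contact ends and holds both AGATAA words of the R1 span, the core that GATA factors read. Capitals mark these words, the second of which is on the minus strand and reads as TTATCT.
R1 window: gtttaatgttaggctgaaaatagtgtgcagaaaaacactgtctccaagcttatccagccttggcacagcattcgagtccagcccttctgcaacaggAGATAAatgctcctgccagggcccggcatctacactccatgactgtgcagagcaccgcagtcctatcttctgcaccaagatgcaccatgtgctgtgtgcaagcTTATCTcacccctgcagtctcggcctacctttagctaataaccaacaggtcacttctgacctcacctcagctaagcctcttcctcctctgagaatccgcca
The next pair are the 120-base windows around the 2 best matches to a CTCF core word in the HS-29 span, at chr11:32146565-32146684 and chr11:32147211-32147330, with the match in capitals.
CTCF match at 32146618: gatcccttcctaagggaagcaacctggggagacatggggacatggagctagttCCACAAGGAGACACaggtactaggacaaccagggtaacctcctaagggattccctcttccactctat
CTCF match at 32147264: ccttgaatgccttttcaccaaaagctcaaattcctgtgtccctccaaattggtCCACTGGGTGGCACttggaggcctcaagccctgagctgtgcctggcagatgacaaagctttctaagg
The last pair are whole fragments of HS-29, the one of 52 bases with the most contact ends at chr11:32148538-32148589 and the one of 193 bases at chr11:32148702-32148894 that had the largest D3839 to WT ratio of the R2 data.
HS-29 fragment with most ends: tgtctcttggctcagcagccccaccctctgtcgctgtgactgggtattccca
HS-29 fragment with largest ratio: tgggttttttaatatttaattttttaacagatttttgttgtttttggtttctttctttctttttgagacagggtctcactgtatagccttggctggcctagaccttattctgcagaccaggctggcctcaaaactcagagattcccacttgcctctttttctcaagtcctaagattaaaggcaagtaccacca

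Motif matches are given as a description, since the words and limits were chosen after the sequence had been looked at. AGATAA, searched on both strands, occurred at 32145757 (plus strand) and 32145860 (minus strand) in R1 and at 32146516 (minus strand) in HS-29. Both R1 matches were preceded by CTG at a gap of 7 or 8 bases, the spacing of the composite E-box and GATA word read by the TAL1 complex, at 32145747 to 32145762 and 32145860 to 32145876. Of 29682 windows of 4 kb along chromosome 11, 90.0% held AGATAA at least once, 9.28% the composite word at least once and 0.489% at least 2 of it. The CTCF core word of 14 letters, CCAC, any base, AGGGGG and CGC in a row, with up to 3 mismatches on either strand, matched at 32146618 to 32146631 and at 32147264 to 32147277, both on the plus strand and both with 3 mismatches. No match lay in R1, and 45.2% of the 4 kb windows held at least one and 17.5% at least 2 such matches, so these letters are common. A match is a description of the letters and not a bound site.

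From R2, HS-29 was contacted more often in D3839 than in WT cells while R1 was not. Each contact has 2 ends, and the level of a span is its share of all contact ends in the region, with the bins around the viewpoint left out. HS-29 held 1378, 986 and 1665 ends in the WT samples, in order of replicate number, and 3169, 2645 and 2834 in those of D3839, which was 7.25, 5.70 and 6.43% against 9.84, 9.04 and 8.79% of all ends. Every D3839 sample lay above every WT sample, as for 18.4% of the spans and segments tested, with a mean of 9.23% ± 0.548 against 6.46% ± 0.774 (SD, n = 3), a 1.43-fold difference. The edgeR quasi-likelihood test across 38 spans and 5 kb segments gave a log2 fold change of 0.51 ± 0.10 (SE) with an adjusted p of 0.0003. Over all 38, 13.2% were called higher and 15.8% lower in D3839. The log2 fold change was 0.25 when each fragment pair was counted once per sample (adjusted p = 0.0079) and 0.36 when the fragment with the largest ratio, described below, was left out (adjusted p = 0.0094).

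R1 held 823, 874 and 1099 ends in WT and 1286, 1340 and 1631 in D3839. These were 4.33, 5.05 and 4.24% against 3.99, 4.58 and 5.06% of all ends, so that the genotypes overlapped throughout, with means of 4.54% ± 0.445 and 4.55% ± 0.534 (SD, n = 3). The log2 fold change of R1 was 0.0026 ± 0.13 (SE) with an adjusted p of 0.99. These shares are relative to the region. With all chromosome 11 contacts as the library size, an alternative chosen after seeing the data, the median of the 38 features moved by 0.458 from R2 and by 0.490 from *Mpg*, R1 then stood at 0.46 (adjusted p = 0.0041) and HS-29 at 0.97 from R2, so R1 was again close to the median shift and HS-29 above it.

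From the *Mpg* promoter both spans were contacted more often in D3839 cells. *Mpg* encodes a DNA glycosylase that removes alkylated bases and lies upstream of the deleted sites, with R1 and HS-29 on the far side of them. R1 held 151, 95 and 234 ends in WT and 341, 380 and 395 in D3839, or 0.606, 0.464 and 0.718% against 0.900, 1.05 and 1.09% of all ends. HS-29 held 168, 69 and 142 ends in WT and 373, 379 and 389 in D3839, or 0.674, 0.337 and 0.436% against 0.984, 1.04 and 1.08%. In both spans all D3839 samples lay above all WT samples, as for 34.2% of the spans and segments tested. R1 rose from a mean of 0.596% ± 0.127 to 1.01% ± 0.102 (SD, n = 3), 1.70-fold, with a log2 fold change of 0.76 ± 0.20 (SE) and an adjusted p of 0.0107. HS-29 rose from 0.482% ± 0.174 to 1.04% ± 0.0476, 2.15-fold, with a log2 fold change of 1.10 ± 0.25 (SE) and an adjusted p of 0.0056. Over all 38 features, 28.9% were called higher and 39.5% lower, so a higher call is not rare in this comparison. The R1 call was lost when each fragment pair was counted once (0.38, adjusted p = 0.0619) and without D3839 replicate 2 (0.74, adjusted p = 0.0551). The log2 fold change of HS-29 was 0.91 to 1.41 with a sample left out (adjusted p at most 0.0313). Over the other alternatives it was 0.90 to 1.97 (adjusted p at most 0.0056).

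Density per kb set the spans beside their flanks. The 4 kb before R1 held 18 fragments, R1 9, HS-29 11 and the R3 span 22. The densities were not corrected for fragment number, so from both viewpoints the steps and ratios between spans hold per kb only. Fragment numbers are the same in WT and D3839. From R2, the 4 kb before R1 held 0.947% of ends per kb in WT and 0.843% in D3839, R1 3.03% in both, HS-29 2.58% and 3.69%, and the 4 kb around R3 on the far side of R2 2.13% and 2.03%. The density thus stepped up between the 4 kb before R1 and R1 in all 6 samples, by 3.20-fold in WT and 3.59-fold in D3839 (two-sided exact sign-flip permutation test over the 6 samples, p = 0.03125, the smallest it can give). The ratio of HS-29 to R1 was 0.864 in WT and 1.24 in D3839, above 1 in 4 of 6 samples, WT replicate 1 and all D3839 samples (exact sign-flip p = 0.78), with the ratio higher in each D3839 sample than in every WT sample. The genotype difference in this ratio was 0.52 on the log2 scale (exact permutation p = 0.1, the smallest that 3 against 3 samples allow). Relative to HS-29, the R3 span was at 0.830 in WT and 0.553 in D3839, below 1 in all 6 samples.

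From *Mpg* the density fell from the 4 kb before R1 to R1 and from R1 to HS-29. The 4 kb before R1 held 0.855% of ends per kb in WT and 1.23% in D3839, R1 0.397% and 0.676%, HS-29 0.193% and 0.414%, and the R3 span 0.260% and 0.380%. R1 was less dense than the 4 kb before it in 6 of 6 samples (ratio 0.462 in WT and 0.550 in D3839), and HS-29 was less dense than R1 in 6 of 6 (0.489 and 0.615), each with an exact sign-flip p of 0.03125. The R3 span over HS-29 was 1.51 in WT and 0.918 in D3839, above 1 in 3 of 6 samples (exact sign-flip p = 0.53). All 4 spans had a higher share of ends in every D3839 sample than in every WT sample, so the rise from *Mpg* covered the flanks as well. The HS-29 to R1 ratio differed between the genotypes by 0.38 on the log2 scale (exact permutation p = 0.4), and the samples overlapped. With the 1 kb bins alone as spans this difference was 1.32.

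**Figure D1:**
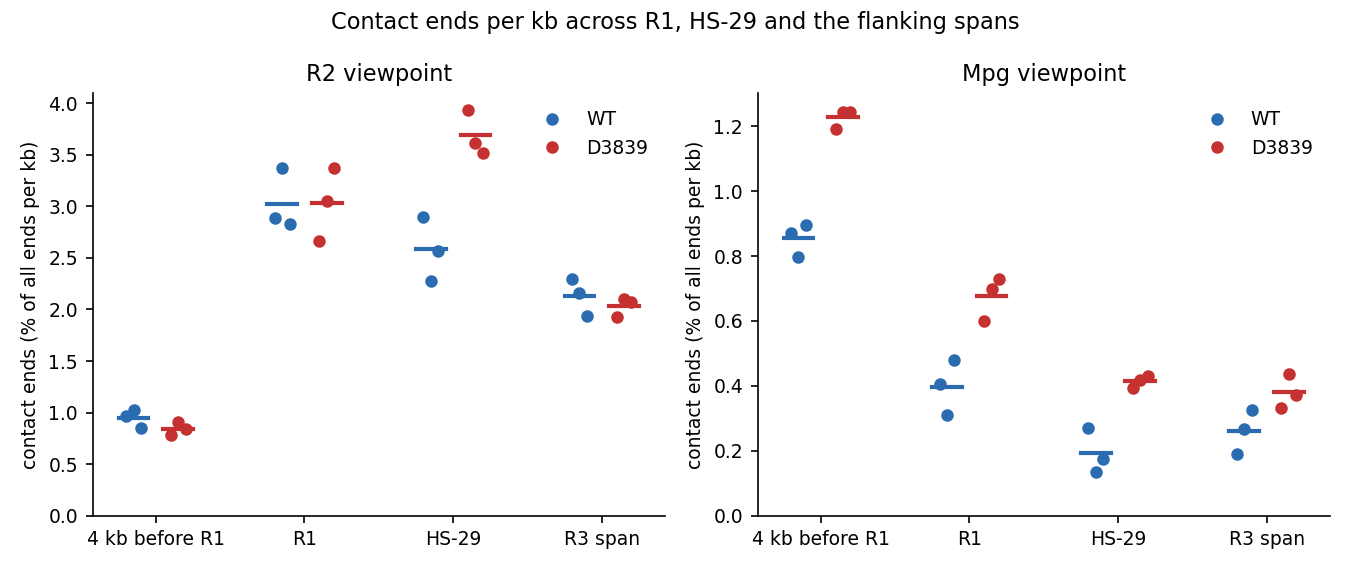
Share of all contact ends per kb (vertical axis, percent per kb) in the 4 kb before R1, R1, HS-29 and the R3 span, for the R2 and *Mpg* viewpoints, with a point for each of the 3 WT and 3 D3839 samples and a bar at the mean. From R2 only HS-29 of the 4 spans has its D3839 points (mean 3.69) all above its WT points (mean 2.58), and from *Mpg* all 4 spans do.

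The rise of HS-29 seen from R2 was carried unevenly by its fragments. The fragment at 32148702-32148894, printed above, had 60, 55 and 65 ends in WT and 420, 322 and 295 in D3839, with a log2 fold change of 1.91 ± 0.22 (SE) and an adjusted p of 8.6e-05 (edgeR). It was the single fragment called of 772 tested from R2 (0.13%), and it kept the call without each of the 6 samples in turn. With each fragment pair counted once its log2 fold change was 1.02, past the threshold. In counts from R2, every D3839 sample lay above every WT sample with partners of each class. With partners upstream of R1 it had 4, 3 and 2 ends in WT and 40, 27 and 23 in D3839, and with partners downstream beyond its neighbours 27, 35 and 32 against 180, 145 and 117. Of its 20-base words, 35.1% occur elsewhere on chromosome 11, and whether repeated sequence or the mapping of reads has a part in its ratio was not tested. Over the 112 fragments tested from R2 with 20% or more such words the median log2 fold change was -0.028, against 0.035 over the other 660.

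Its neighbour at 32148664-32148701, which is 38 bases long, had 70, 43 and 132 ends in WT and 310, 215 and 299 in D3839 from R2 (log2 fold change 1.21 ± 0.25, SE, adjusted p = 0.0594). In R1, the fragment at 32146092-32146416 had 63, 63 and 61 ends in WT and 213, 185 and 190 in D3839 (1.03 ± 0.24, adjusted p = 0.0821). Both missed the threshold in edgeR although their groups did not overlap, and 50.3% of the 20-base words of the R1 fragment occur elsewhere on chromosome 11. The other 18 members had at most 1.68% such words. DESeq2 called 5 of the 20 fragments, 4 of them in HS-29 and 1 in R1, among 10 of the 129 fragments to which it gave an adjusted p (7.75%).

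Fragments that hold the motif matches can be read singly from R2. The fragment at 32147004-32147618 with the CTCF match at 32147264 had 103, 79 and 74 ends in WT and 250, 215 and 177 in D3839 (log2 fold change 0.69 ± 0.25, SE, adjusted p = 0.255), with no overlap between the genotypes. The fragment at 32146607-32147003, which holds the other match, had 127, 109 and 122 against 182, 160 and 209 (log2 fold change -0.0016 ± 0.22, adjusted p = 0.998). The R1 fragment with most ends, at 32145844-32145960, had 144, 157 and 183 against 199, 226 and 312 (-0.0048 ± 0.21, adjusted p = 0.995). Of these, the fragment with the CTCF match at 32147264 alone separated the genotypes, and it did not pass the test over all fragments. The R1 fragment at 32145355-32145795 with the upstream AGATAA word had 71, 101 and 80 against 175, 170 and 205 (0.49 ± 0.25, adjusted p = 0.464). The HS-29 fragment with most ends, at 32148538-32148589, had 221, 113 and 275 in WT and 393, 255 and 285 in D3839 (0.047 ± 0.23, adjusted p = 0.948), which is no detectable change in share.

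Read as lists, 8 of the 20 members had all D3839 shares above all WT shares from R2, 7 in HS-29 and 1 in R1, against 9.72% of all fragments tested. The median log2 fold change was 0.45 over the 11 HS-29 fragments and -0.14 over the 9 R1 fragments, beside 0.014 over all 772. Within R1, the short fragments at 32146008-32146042 and 32146043-32146091 had the lowest values, -0.59 (adjusted p = 0.297) and -0.62 (adjusted p = 0.403). The first had 108, 104 and 213 ends in WT and 118, 126 and 171 in D3839, with every D3839 share below every WT share, as for 8.55% of all fragments. Short fragments had lower values in the whole region, with a median of -0.15 over 155 fragments of 1 to 49 bases and 0.28 over 97 of 400 bases or more, so length moved with genotype and its part in these values was not tested. With counts scaled within 5 length classes, an alternative chosen after seeing the data, the log2 fold change of HS-29 from R2 was 0.54.

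The remaining HS-29 fragments differed among themselves from R2. The fragment at 32147619-32148126, which adjoins the one with the CTCF match at 32147264, had 104, 82 and 79 ends in WT and 235, 246 and 201 in D3839 (log2 fold change 0.73 ± 0.24, SE, adjusted p = 0.214), without overlap. The fragment at 32148127-32148537, which holds the *Nprl3* exon from 32148145 to 32148226, had 173, 131 and 205 against 314, 303 and 320 (0.29 ± 0.19, adjusted p = 0.57), and that at 32148624-32148663 had 123, 75 and 212 against 333, 291 and 334 (0.68 ± 0.22, adjusted p = 0.214). Both also lacked overlap in share, whereas the short fragment at 32148590-32148623 had 201, 98 and 254 against 303, 205 and 274 (-0.066 ± 0.23, adjusted p = 0.942) and the fragment on the divide at 32146417-32146598 had 115, 93 and 110 against 184, 229 and 217 (0.38 ± 0.22, adjusted p = 0.535), with overlap. At the downstream edge, the last fragment inside the span, at 32148895-32148970, had 81, 108 and 137 ends in WT and 245, 204 and 223 in D3839. Its log2 fold change was 0.45 ± 0.21 (adjusted p = 0.437), without overlap in share. The first fragment outside, at 32148971-32149124, had 237, 201 and 275 against 397, 392 and 401. The latter are counts only, and the D3839 matrices held more contacts.

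The other R1 fragments overlapped between the genotypes from R2. At 32145205-32145354 there were 77, 58 and 62 ends in WT and 81, 105 and 89 in D3839 (log2 fold change -0.14 ± 0.28, SE), at 32145796-32145843 there were 78, 116 and 75 against 151, 138 and 207 (0.22 ± 0.28) and at 32145961-32146007 there were 123, 126 and 192 against 185, 186 and 217 (-0.17 ± 0.20), with adjusted p from 0.816 to 0.901. At the upstream edge, the first fragment inside, at 32145014-32145204, had 68, 77 and 59 ends in WT and 86, 113 and 89 in D3839. Its mean share was 0.343% in WT and 0.310% in D3839 (-0.14 ± 0.29, adjusted p = 0.901). The last fragment outside, at 32144808-32145013, had 62, 60 and 46 against 64, 90 and 95. The latter are counts only, and the D3839 matrices held more contacts.

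From *Mpg*, 4 members were among the 14 of 875 fragments called higher in D3839 (1.6%). The fragment at 32147004-32147618 with the second CTCF match had 8, 4 and 9 ends in WT and 46, 44 and 46 in D3839, a log2 fold change of 2.19 ± 0.49 (SE) with an adjusted p of 0.0382. The adjoining short fragments of HS-29 had 11, 0 and 2 against 32, 31 and 51 (at 32148624-32148663, 2.60 ± 0.71, adjusted p = 0.0485) and 4, 0 and 2 against 30, 27 and 41 (at 32148664-32148701, 3.47 ± 0.69, adjusted p = 0.0173). In R1 the fragment at 32146092-32146416 had 7, 2 and 5 against 19, 32 and 44 (2.25 ± 0.59, adjusted p = 0.0382). When each fragment pair was counted once, 3 of the 4 calls were lost, with values of 1.52 (adjusted p = 0.0805) and 1.84 (adjusted p = 0.0716) for the short HS-29 fragments and 0.65 (adjusted p = 0.443) for the R1 fragment. For all 4 the D3839 samples lay above the WT samples, while the counts in WT were 11 or fewer. Of the 20-base words of this R1 fragment, 50.3% occur elsewhere on chromosome 11. From *Mpg* the 135 fragments with 20% or more such words had a median log2 fold change of 0.17, with 7 called in either direction, against -0.12 and 21 called over the other 740. Among fragments of 200 to 399 bases, which include the R1 fragment, the medians were 0.58 (6 of 44 called) and 0.13 (4 of 154). The part of repeated sequence in this call was not tested.

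The fragment called from R2, at 32148702-32148894, was not called from *Mpg*. It had 18, 4 and 9 ends in WT and 30, 30 and 23 in D3839 (log2 fold change 0.91 ± 0.54, SE, adjusted p = 0.315), and the shares overlapped. With partners downstream it had 14, 2 and 2 ends against 6, 4 and 3, and with partners upstream of R1 0, 2 and 0 against 9, 10 and 5.

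The calls from *Mpg* rest on few counts. Without WT replicate 2, D3839 replicate 2 or D3839 replicate 3, none of the 20 fragments was called, and without any other sample 1 or 2 were. The fragment at 32146092-32146416 lost its call without each of the 6 samples in turn, with adjusted p from 0.057 to 0.191, while its log2 fold change stayed between 1.92 and 2.70. With a sample left out, the log2 fold change was 2.11 to 4.68 at 32148624-32148663 and 3.02 to 4.46 at 32148664-32148701. At 32147004-32147618 it was 2.04 to 2.34. All 20 members had a log2 fold change above 0 from *Mpg*, with medians of 0.66 in R1 and 0.91 in HS-29 beside -0.069 over all fragments tested. Groups did not overlap for 10 of the 20, 6 in HS-29 and 4 in R1, against 13.6% of all fragments.

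**Figure D2:**
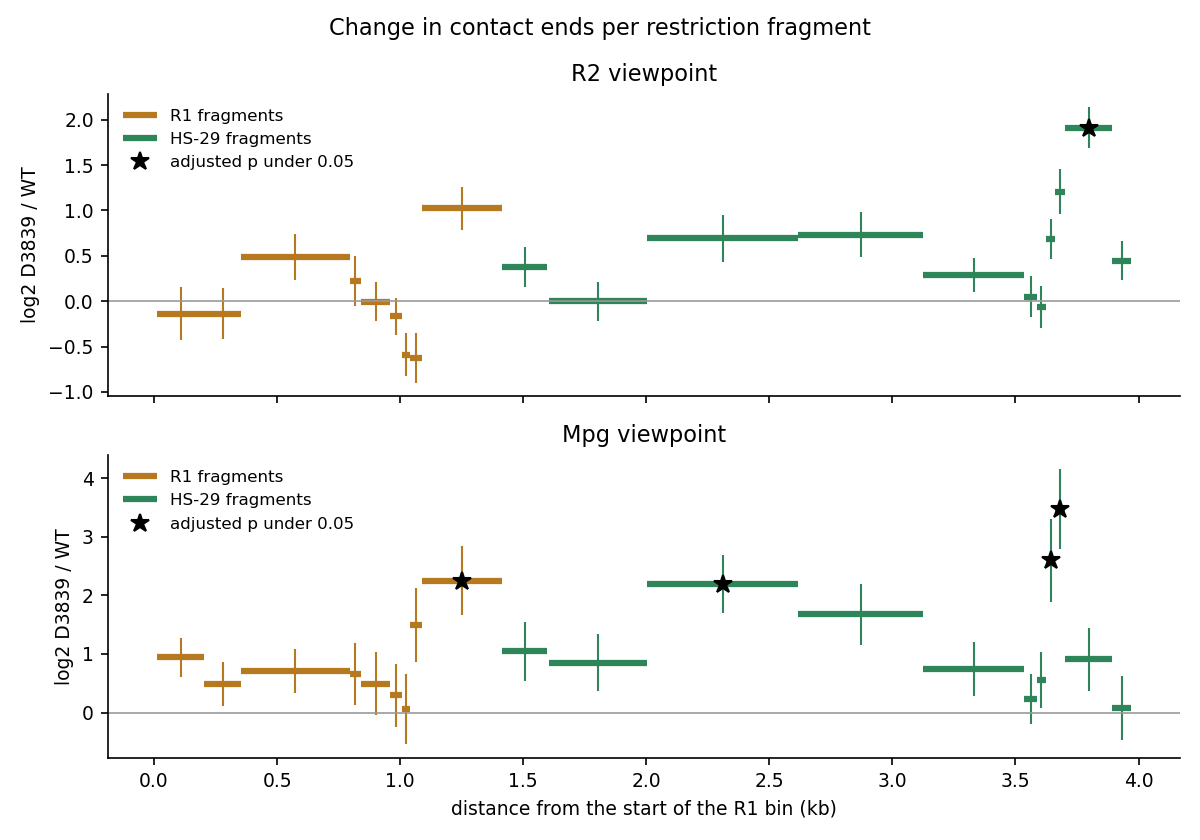
Log2 ratio of contact ends between D3839 and WT (vertical axis, edgeR) for each restriction fragment of R1 and HS-29 against its distance from the start of the R1 bin in kb, with the bar as wide as the fragment and a star at an adjusted p under 0.05. From R2 the 11 HS-29 fragments have a median of 0.45 with one star at 1.91, and from *Mpg* all 20 fragments lie above 0 with 4 stars.

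R1 and HS-29 took different shares of the segments next to them. The partner profile of a span is the distribution of its contacts over the 5 kb segments of the region, without contacts inside or between the spans. From R2, 2 of 34 segments tested (5.88%) differed between R1 and HS-29 over the 6 samples (edgeR with the sample as a block, adjusted over the segments), and both adjoin the spans. The segment from 32140001 to 32145000, just before R1, took 9.82 to 13.7% of R1 contacts and 1.67 to 5.56% of HS-29 contacts over the samples, with means of 10.9% ± 1.47 and 3.96% ± 1.29 (SD, n = 6). It was higher for R1 in 6 of 6 samples, with a log2 ratio of 1.46 ± 0.18 (SE). The 1 kb from 32149001 to 32150000, between HS-29 and the R2 viewpoint, took 8.85% ± 1.75 of R1 and 18.3% ± 2.44 of HS-29 contacts, lower for R1 in 6 of 6 samples at -1.07 ± 0.12. The latter call was lost when each fragment pair was counted once (-0.11, adjusted p = 0.88), without fragments under 100 bases (-0.56, adjusted p = 0.055) and with the 1 kb bins alone as spans (-0.60, adjusted p = 0.063). Contacts of neighbouring fragments made up 23.5 to 34.5% of the contacts of both spans in WT and 20.4 to 27.9% in D3839 from R2. The profiles were not tested without them.

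At the α-globin genes no difference between the profiles passed the test. The segment from 32180001 to 32185000, which holds *Hba-a1*, one of the α-globin genes, took 8.61% ± 1.72 of R1 contacts and 7.11% ± 0.83 of HS-29 contacts from R2 (SD, n = 6), a log2 ratio of 0.24 ± 0.17 (SE, adjusted p = 0.63). The segment from 32195001 to 32200000 with *Hba-a2*, the duplicate gene, took 9.64% ± 3.16 and 8.02% ± 1.27, at 0.22 ± 0.15 (adjusted p = 0.63). Neither passed, and R1 was the higher in 5 of 6 samples for both. At R3, in the segment from 32155001 to 32160000, HS-29 was the higher in 6 of 6 samples, at 10.3% ± 0.98 against 7.65% ± 1.23, with a log2 ratio of -0.42 ± 0.15 (SE) that missed the threshold (adjusted p = 0.063).

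From *Mpg*, where each span had 49 to 294 partner contacts in a sample, 1 of 25 segments (4%) differed. It was again the 1 kb from 32149001 to 32150000, with 1.02% ± 1.27 of R1 contacts against 10.7% ± 5.52 of HS-29 contacts (SD, n = 6), a log2 ratio of -3.18 ± 0.75 (SE) and an adjusted p of 0.0012. This call was lost without fragments under 100 bases (-2.22, adjusted p = 0.566) and with the 1 kb bins alone as spans (-1.64, adjusted p = 0.73). Whether the genotype changed the difference between the R1 and HS-29 profiles was tested per segment. Of the interactions of span and genotype, 0 of 34 from R2 and 0 of 25 from *Mpg* were called by edgeR, with 1 (2.94%) and 0 at an unadjusted p under 0.05.

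**Figure D3:**
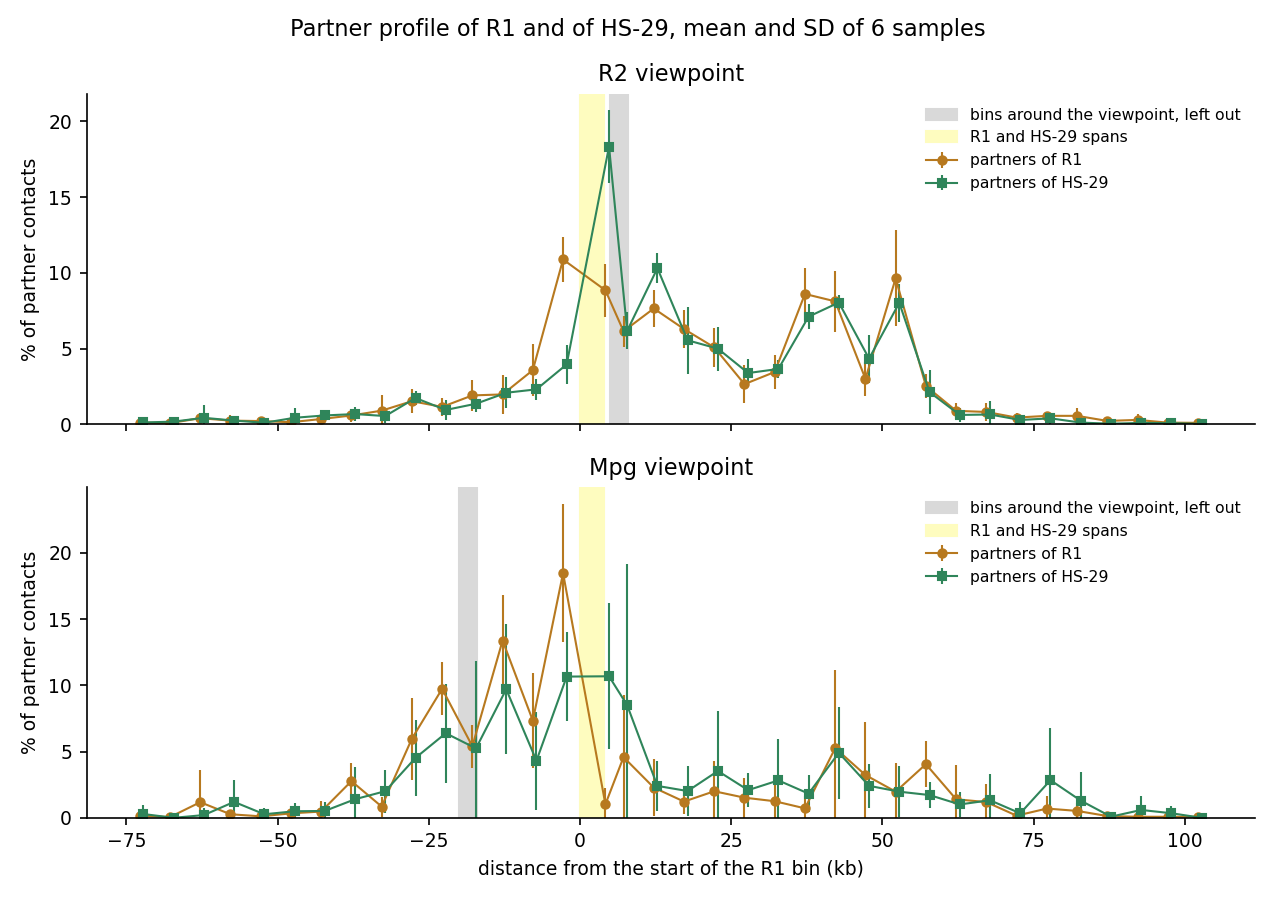
Share of the partner contacts of R1 (circles) and of HS-29 (squares) in each 5 kb segment (vertical axis, percent, mean and SD of the 6 samples) against the distance from the start of the R1 bin in kb, for both viewpoints, with the viewpoint bins shaded. The curves part next to the spans, at 10.9% against 3.96% before R1 from R2, and no segment over the α-globin genes passed the test, while from *Mpg* the R1 curve reaches 18.5% in the segment before R1.

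Where the partners lay differed by viewpoint. Between the viewpoints, 14 of 28 segments (50%) differed for R1, 7 in each direction, and 8 of 31 (25.8%) for HS-29, 4 in each direction (edgeR with the sample as a block). With R1, the segment from 32120001 to 32125000, which holds the promoter of *Rhbdf1*, a gene for an inactive rhomboid protease, took 1.16% of partner contacts from R2 and 10.1% from *Mpg*. With HS-29 it took 0.955% and 6.87%. In the other direction, the *Hba-a1* segment took 8.68% of R1 partners from R2 and 0.730% from *Mpg*, and of HS-29 partners 7.16% and 1.97%. Shares here are of the segments that both viewpoints can report, which is why they differ slightly from those above. The *Rhbdf1* segment adjoins the bins left out around the *Mpg* viewpoint, 32125001 to 32128000. The test took no account of the distance of a segment from each viewpoint. It therefore cannot tell a trait of R1 or HS-29 from the place of the viewpoints. Leaving out WT replicate 1 brought the R1 count to 9, leaving out D3839 replicate 3 brought the HS-29 count to 4, and without fragments under 100 bases the HS-29 count was 14. With TMM normalization, the R1 calls of the segments from 32105001, 32115001, 32135001 and 32140001 were lost (adjusted p from 0.095 to 0.71). The HS-29 call of the segment from 32140001 was lost too (adjusted p = 0.28). All of these were lower from R2, and the segments higher from R2 kept their calls.

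Summed over all segments, partners lay mostly downstream from R2. From *Mpg* those of R1 lay mostly upstream and those of HS-29 were split. Downstream of the spans lie R2, R3, Rm, R4 and the globin genes, and upstream HS-38, HS-39 and the *Mpg*, *Rhbdf1* and *Snrnp25* genes. Each viewpoint thus lies on the side where most R1 partners were seen from it, and distance from the viewpoint was not accounted for. From R2 the downstream share was 80.4, 81.1 and 72.4% for R1 in WT and 67.4, 77.7 and 76.8% in D3839. For HS-29 it was 80.2, 90.2 and 87.9% in WT and 83.6, 82.0 and 82.0% in D3839. The genotypes overlapped for both spans (exact permutation p = 0.5 and 0.4). From *Mpg* the share was 28.4, 20.4 and 44.4% in WT and 31.1, 36.7 and 39.8% in D3839 for R1, and 65.0, 51.0 and 56.9% in WT and 44.7, 54.0 and 44.9% in D3839 for HS-29. The genotype difference was 4.83 percentage points for R1 (exact permutation p = 0.6) and -9.75 for HS-29 (exact permutation p = 0.2).

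HS-29 had the larger downstream share than R1 from *Mpg* in 6 of 6 samples, by 19.3 ± 11.9 percentage points (SD, n = 6, exact sign-flip p = 0.03125, the smallest possible). From R2 it did so in 5 of 6 samples, by 8.34 ± 6.50 points (exact sign-flip p = 0.0625). Each span has the other on one side, so the stretch next to it lies mostly upstream for R1 and downstream for HS-29. Without partners within 5 kb of the spans the difference was 12.0 points from *Mpg* (exact sign-flip p = 0.0625) and 1.27 from R2, and with the 1 kb bins alone as spans it was 5.93 from *Mpg* (exact sign-flip p = 0.25).

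Contacts of the spans with named elements were taken in windows of 4 to 6 kb. Of 104 element pairs tested from R2, 0 were called by edgeR (0%), with 15 (14.4%) higher in D3839 at an unadjusted p under 0.05. Among these were 8 of the 27 pairs that include R1 or HS-29, 7 with HS-29 and 1 with R1. DESeq2 also called 0 of the 27 and 0 of all 104 (0%). At an unadjusted p under 0.05 it had 5 of the 27, all higher in D3839, beside 19 of the 104 in either direction (18.3%). All 14 HS-29 pairs had a log2 fold change above 0, with a median of 0.60, against 9 of 14 for R1 with a median of 0.29 and a median of 0.22 over all pairs. Pairs were scaled to the matrix and not to the total of HS-29, which was itself higher in D3839 from R2.

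With the other enhancers, HS-29 contacts from R2 were higher in share in most D3839 samples. With R3 there were 86, 58 and 71 contacts in WT and 154, 184 and 162 in D3839 (log2 fold change 0.60 ± 0.28, SE, adjusted p = 0.20). With R4 and the *Nprl3* promoter, which share a window, there were 17, 19 and 9 against 54, 55 and 46 (1.12 ± 0.45, adjusted p = 0.17). With Rm there were 54, 19 and 43 against 104, 103 and 85 (0.74 ± 0.35, adjusted p = 0.20), where WT replicate 1 lay within the D3839 range. The groups did not overlap for R3 and R4. R1 had 36, 46 and 41 contacts with R3 in WT and 56, 84 and 93 in D3839 (0.30 ± 0.36, adjusted p = 0.64), 42, 34 and 16 against 54, 53 and 71 with Rm (0.27 ± 0.39), and 14, 14 and 11 against 26, 20 and 20 with R4 (0.12 ± 0.56). None of these R1 pairs separated the genotypes, and the values with Rm and R4 changed sign without WT replicate 3.

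The globin genes code for chains of haemoglobin, with *Hba-a1* and *Hba-a2* for the adult α chain, *Hba-x* for the embryonic ζ chain and *Hbq1a* and *Hbq1b* for θ chains. From R2, HS-29 had 36, 34 and 40 contacts with the *Hba-a1* window in WT and 111, 90 and 66 in D3839 (log2 fold change 0.67 ± 0.36, SE, adjusted p = 0.27), without overlap in share. With *Hba-a2* it had 47, 63 and 59 against 139, 119 and 91 (0.42 ± 0.31, adjusted p = 0.50), with overlap. R1 had 27, 34 and 27 contacts with *Hba-a1* against 55, 24 and 58 (-0.014 ± 0.42, adjusted p = 0.98) and 32, 61 and 40 with *Hba-a2* against 52, 50 and 75 (-0.24 ± 0.37, adjusted p = 0.67), and both of these turned above 0 without WT replicate 2. None of these 4 pairs passed the test, which does not show that the contacts with the adult α-globin genes were unchanged. HS-29 with *Hbq1b* stood at 0.59 ± 0.34 (adjusted p = 0.33), with *Hba-x* at 0.31 and with *Hbq1a* at 0.26, and R1 with *Hba-x* at 0.36, with *Hbq1b* at -0.10 and with *Hbq1a* at -0.67 (adjusted p from 0.51 to 0.88 for these 5).

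Windows upstream of the deleted sites held few contacts in WT. With *Mpg*, HS-29 had 3, 1 and 9 contacts in WT and 26, 21 and 12 in D3839 from R2 (log2 fold change 1.64 ± 0.73, SE, adjusted p = 0.19), and R1 had 0, 2 and 8 against 18, 12 and 19 (1.73 ± 0.79, adjusted p = 0.20). With *Rhbdf1*, HS-29 had 1, 6 and 2 against 28, 20 and 10 (2.02 ± 0.78, adjusted p = 0.17) and R1 2, 2 and 7 against 13, 8 and 8 (0.84 ± 0.87, adjusted p = 0.64). With *Snrnp25*, which codes for a protein of the minor spliceosome, HS-29 had 4, 0 and 1 against 11, 18 and 9 (2.27 ± 0.95, adjusted p = 0.17) and R1 2, 0 and 1 against 7, 9 and 0 (1.75 ± 1.26, adjusted p = 0.50). With a sample left out, the HS-29 values were 1.27 to 2.48 for *Mpg*, 1.65 to 3.14 for *Rhbdf1* and 1.79 to 3.92 for *Snrnp25*. Those of R1 were 1.20 to 3.12, 0.60 to 1.45 and 1.10 to 2.70 in the same order, and none passed the test. The groups did not overlap for *Mpg* with either span and for *Snrnp25* with HS-29. Over all element pairs 14.4% did not overlap in that direction, and 7 of the 27 member pairs did not. With the window of HS-38 and HS-39 themselves, HS-29 had 23, 11 and 23 against 36, 46 and 39 (0.51 ± 0.46, adjusted p = 0.57), and R1 had 13, 15 and 25 against 48, 30 and 20 (0.31 ± 0.48, adjusted p = 0.67), a value that fell to -0.036 without D3839 replicate 1.

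From *Mpg*, 0 of 87 element pairs were called by edgeR (0%), with 15 (17.2%) higher in D3839 at an unadjusted p under 0.05, 5 of them among the 23 member pairs and all 5 with HS-29. Counts were so low here that a count of 0 says little. DESeq2 called 0 of the 23 beside 2 of all 87 (2.3%). At an unadjusted p under 0.05 it had 2 of the 23, both higher in D3839, beside 10 of the 87 in either direction (11.5%). All 12 R1 and all 12 HS-29 pairs tested had log2 fold changes above 0, with medians of 1.08 and 1.52 beside 0.76 over all pairs, although with TMM or DESeq2 normalization the values of HS-29 with *Hba-a1* and Rm and of R1 with R4, and with DESeq2 that within R1, were below 0. HS-29 had 4, 3 and 0 contacts with *Rhbdf1* in WT and 15, 26 and 15 in D3839 (2.39 ± 0.84, SE, adjusted p = 0.109), and R1 had 8, 5 and 11 against 18, 26 and 28 (1.10 ± 0.56, adjusted p = 0.28). The HS-29 pair with *Rhbdf1* passed with each fragment pair counted once (2.01, adjusted p = 0.0455) and without fragments under 100 bases (4.21, adjusted p = 0.0163). With the window of HS-38 and HS-39, HS-29 had 7, 0 and 0 against 20, 15 and 18 (2.34 ± 0.93, adjusted p = 0.16) and R1 had 11, 7 and 7 against 34, 30 and 14 (1.09 ± 0.57, adjusted p = 0.28). This HS-29 pair passed with each fragment pair counted once (2.28, adjusted p = 0.0455) and without WT replicate 1, which held all 7 WT contacts (adjusted p = 0.0067). With *Hba-x*, HS-29 had 0, 1 and 0 contacts against 5, 4 and 15 (3.70 ± 1.30, adjusted p = 0.109). The value with *Hba-x* was 2.85 to 5.90 with a sample left out. With *Hba-a2*, HS-29 had 3, 0 and 0 against 8, 3 and 3 (1.59 ± 1.17, adjusted p = 0.48). R1 had 2, 3 and 1 against 2, 8 and 18 (1.63 ± 1.00, adjusted p = 0.38). With *Hba-a1*, HS-29 had 2, 2 and 0 against 2, 2 and 2 (0.013 ± 0.92, adjusted p = 0.99), and R1 2, 0 and 0 against 0, 5 and 1, too few to be tested. With R3, HS-29 had 5, 0 and 1 against 4, 11 and 2 (0.96 ± 1.07, adjusted p = 0.63) and R1 1, 2 and 1 against 11, 6 and 3 (1.70 ± 1.01, adjusted p = 0.36). With R4, HS-29 had 0 in all WT samples and 7, 3 and 3 in D3839, at least 3.04-fold higher against a floor of 3 counts over the WT group, which covers counting error only. Over all pairs 27.6% had every D3839 sample above every WT sample, and 7 of the 23 member pairs did, so the separation of the members was close to that of the whole set.

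**Figure D4:**
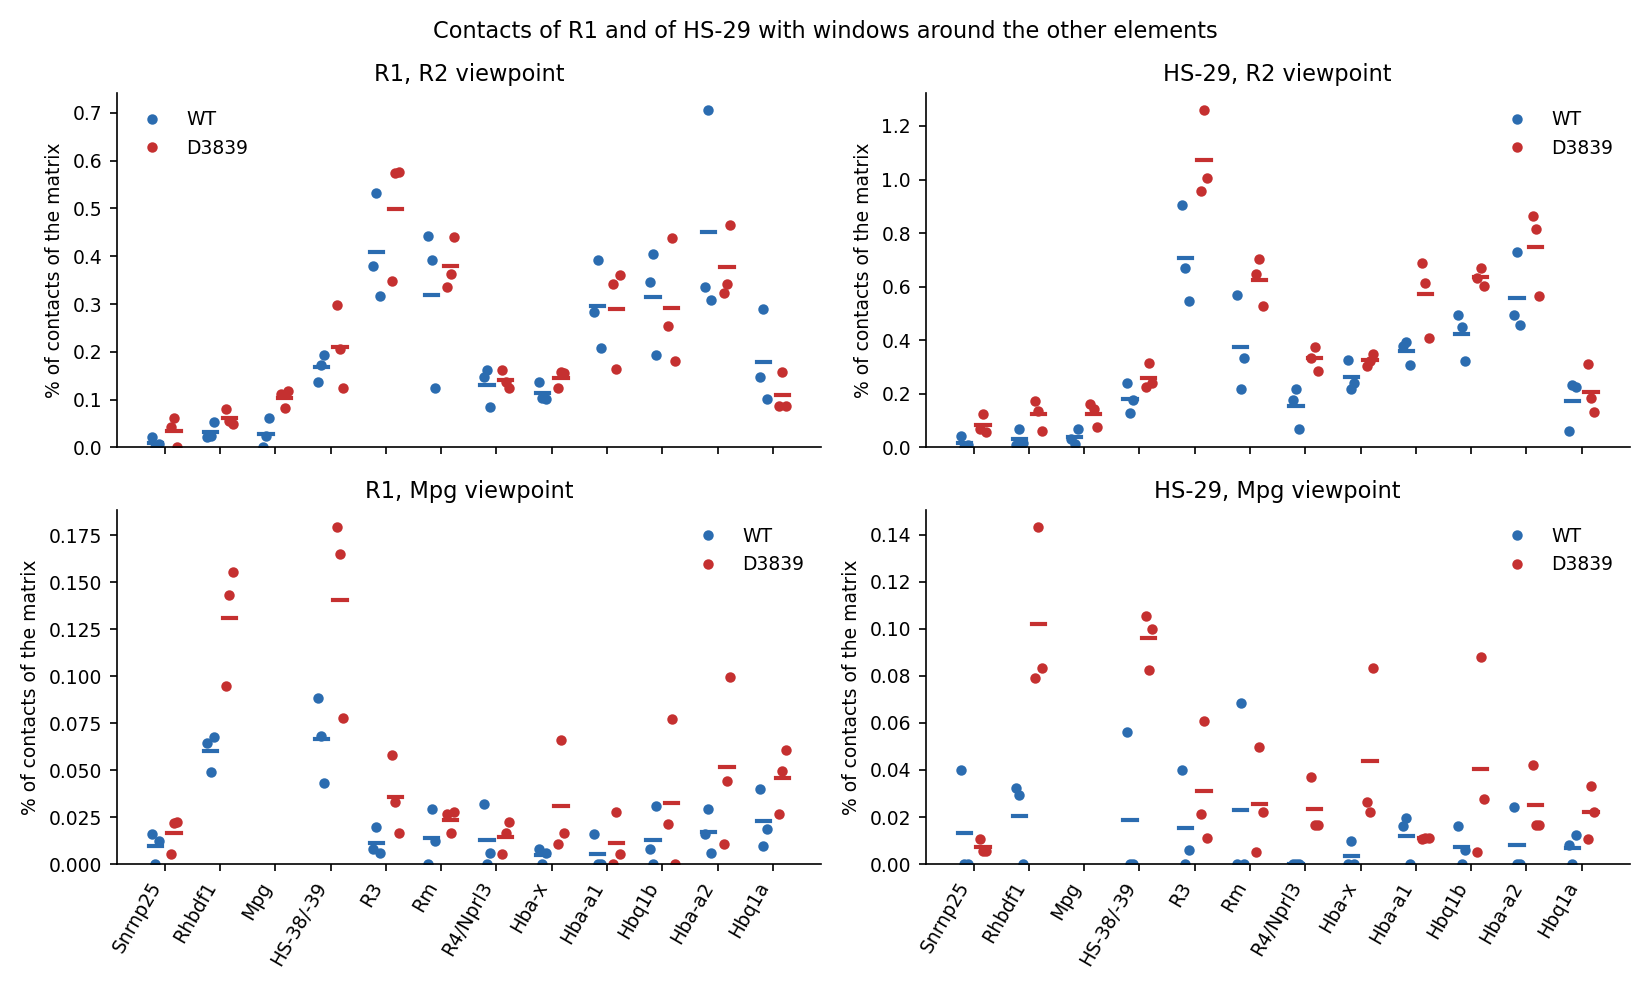
Contacts of R1 and of HS-29 with windows around the other elements (vertical axis, percent of all contacts of the matrix), with a point for each of the 3 WT and 3 D3839 samples and a bar at the mean, for both viewpoints. HS-29 with R3 and R4 from R2 has all D3839 points above WT, and R1 with *Hba-a1* and *Hba-a2* overlaps. From R2 the *Mpg*, *Rhbdf1* and *Snrnp25* windows have WT means of 0.0096 to 0.038%. The window of HS-38 and HS-39 has WT means of 0.182% with HS-29 and 0.168% with R1.

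Over 5 kb segments, 0 of 410 pairs from R2 were called by edgeR (0%), with 55 (13.4%) at an unadjusted p under 0.05 and 36 of them (8.78%) higher in D3839, of which 12 higher and 2 of the lower were among the 59 pairs with R1 or HS-29. DESeq2 called 0 of these 59 and 0 of all 410 (0%). From *Mpg*, 11 of 510 pairs were called higher (2.16%) and 13 lower (2.55%), and 1 of the 44 member pairs was among them. This was HS-29 with the segment from 32130001 to 32135000, which holds the end of *Mpg*, with 3, 2 and 7 contacts in WT and 30, 23 and 23 in D3839. Its log2 fold change was 2.17 ± 0.68 (SE) with an adjusted p of 0.0401, and all D3839 samples lay above WT. The call held without WT replicate 3 and was lost without each of the other 5 samples, with adjusted p up to 0.236 and log2 fold changes of 1.98 to 2.60 over the 6 omissions. It was also lost with length classes (adjusted p = 0.0564), without the count filter (0.0594), without contacts of neighbouring fragments (0.0826), without fragments under 100 bases (0.118), without the fragment of largest ratio (0.0543) and with the 1 kb bins alone as spans (0.197). Under these settings the log2 fold change was 1.97 to 2.17.

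R1 and HS-29 also met each other. From R2 there were 91, 83 and 73 contacts between them in WT and 180, 161 and 144 in D3839, which was 0.827% ± 0.228 and 1.04% ± 0.125 of all contacts (SD, n = 3, exact permutation p = 0.3). The edgeR log2 fold change was 0.34 ± 0.28 (SE, adjusted p = 0.51), and the samples overlapped. From *Mpg* there were 6, 2 and 8 against 7, 10 and 29. Contacts inside HS-29 from R2 numbered 311, 197 and 466 in WT and 736, 521 and 730 in D3839 (0.47 ± 0.18, adjusted p = 0.17), a value of -0.21 when each fragment pair was counted once (adjusted p = 0.561). It passed the threshold when scaled within fragment length classes (0.63, adjusted p = 0.0036) and with all chromosome 11 contacts as library size (0.92, adjusted p = 0.00072). Contacts inside R1 numbered 180, 184 and 308 against 220, 235 and 377 (-0.27 ± 0.22, adjusted p = 0.51). Their share of all contacts of a span was 31.0% ± 7.13 in WT and 29.8% ± 5.10 in D3839 for HS-29 and 31.2% ± 6.73 and 23.99% ± 5.27 for R1, with overlap in both.

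Contacts of the 4 kb of both spans that left the region made up 18.2 to 24.1% of their chromosome 11 contacts in WT and 9.90 to 12.5% in D3839 from R2, and 26.0 to 30.5% against 14.1 to 19.03% from *Mpg*, without overlap (exact permutation p = 0.1 for each). Here too the kit cannot be told apart from the genotype. The matrices held 8651 to 12955 contacts in WT and 14625 to 16115 in D3839 from R2, and 10237 to 16295 against 18040 to 18951 from *Mpg*. A floor of 3 counts was thus 0.0186 to 0.0347% of an R2 matrix.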

How the data were processed

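Tri-C contacts were measured in 3 WT and 3 D3839 samples from 2 viewpoints, R2 and *Mpg*. By the study's methods and the labels, the authors trimmed reads with Trim Galore, aligned them to mm9 with Bowtie (versions not given in the sources used here), ran CCseqBasic, removed PCR duplicates, kept reads with more than one reporter and deposited unnormalized contact counts for pairs of NlaIII fragments. The fragments named in the tables matched an in silico digest of mm9. The members and lists used here were chosen with earlier results of these data known.

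Contacts with both midpoints from 32070001 to 32250000 were kept, and the bins around the viewpoint (32150001 to 32153000 for R2, 32125001 to 32128000 for *Mpg*) were left out. The quasi-likelihood test of edgeR 4.0.16 (R 4.3.3), with the matrix total as library size and no replicate block, was applied to features with 10 or more counts summed over samples, with Benjamini-Hochberg adjustment over all features of a comparison and a threshold of 0.05. Partner profiles used the sample as a block and were not refitted without contacts of neighbouring fragments. Densities, shares and their differences were compared by two-sided exact permutation tests in scipy 1.17.1 with numpy 2.4.6, pandas 2.3.3, matplotlib 3.10.9 and python 3.11.15, where 3 against 3 samples allow no p below 0.1. Every element window was named with each span from R2. From *Mpg*, counts are given for *Rhbdf1*, HS-38 and HS-39, R3, R4, *Hba-x*, *Hba-a1* and *Hba-a2*, with HS-29 or with both spans. Up to 3 segment pairs past the threshold in each direction were named, and the members by position. Element positions are read to the nearest kb. Alternatives covered TMM, DESeq2 1.42.0, the count filter, contacts of neighbouring fragments, single counting of fragment pairs, the limits of the spans, windows of 3 kb, partners within 5 kb, each sample left out and the replicate block. Chromosome 11 totals as library size, scaling within length classes, fragments under 100 bases left out and the fragment with the largest ratio left out were chosen after seeing the data. The tests were tested on simulated data, where those of the spans and segments recovered the planted changes, while those of single fragments, pairs and partner segments missed many of them and those of element pairs nearly all, so that a count of 0 or a missed threshold there does not show that contacts were unchanged. Contacts of 1 read are not independent, so counting floors cover counting error only.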

Additional observations from a re-analysis of the deposited data

How the results depend on the processing

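Of the results that answer a comparison, 306 alternative values kept their direction and their side of the threshold or stayed close to the main value, while 59 moved, 10 lost and 3 gained the threshold and 6 changed sign. These are given here with the values of single pairs that changed sign; the cause was not tested. Of the 10 losses, 6 are the downstream share from *Mpg* with a sample left out, where 5 samples cannot give a sign-flip p under 0.0625, so these say nothing about stability.

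For the log2 fold change of R1 from R2, near 0, DESeq2 gave -0.025, single counting of fragment pairs -0.023 and leaving out 1 sample -0.082 to 0.088, while chromosome 11 totals as library size gave 0.46. R1 from *Mpg* was 0.38 with single counting and 0.61 to 0.91 with a sample left out. Chromosome 11 totals moved the median log2 fold change of all fragments by 0.46 from R2 and 0.48 from *Mpg*. In the counts that follow, the percentage is the share of all features tested that was called in either direction under the same setting. Among segment pairs with a span, the count called from R2 was 1 with the replicate block (1.71%), length classes (1.22%), neighbouring contacts left out (0.985%) and 1 kb bins (0.741%), 13 with chromosome 11 totals (7.32%) and 0 to 1 with a sample left out (0 to 0.767%). From *Mpg* it was 0 without the count filter (2.51%), without the fragment of largest ratio (4.52%) and with 1 kb bins (4.38%), 7 with chromosome 11 totals (13.1%) and 0 to 4 with a sample left out (0 to 7.77%). Among element pairs it was 1 with length classes (0.962%) and 12 with chromosome 11 totals (17.3%) from R2, and from *Mpg* 2 with single counting (10.5%), 1 without short fragments (1.37%), 4 with chromosome 11 totals (12.6%) and 0 to 1 with a sample left out (0 to 2.35%). Member fragments called from R2 numbered 3 with the replicate block (0.518%) and without the count filter (0.574%), 5 with DESeq2 (7.75%), 4 with length classes (0.648%), 2 without neighbouring contacts (1.56%), with single counting (1.1%) and without short fragments (1.18%), 10 with chromosome 11 totals (3.63%) and 1 to 2 with a sample left out (0.132 to 0.539%). From *Mpg* they numbered 2 with length classes (0.686%), without neighbouring contacts (2.98%) and with single counting (5.45%), 1 without short fragments (5.5%), 7 with chromosome 11 totals (12.7%) and 0 to 2 with a sample left out (0.115 to 4.83%). Segments that differed between R1 and HS-29 numbered 1 with 1 kb bins from R2, and from *Mpg* 0 with 1 kb bins and without short fragments and 1 to 2 with a sample left out. Segments that differed by viewpoint numbered 14 for HS-29 without short fragments, and with a sample left out 9 to 14 for R1 and 4 to 11 for HS-29.

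The downstream share of HS-29 minus R1 was 13.9 points without short fragments and 9.86 with 1 kb bins from R2, and 5.93 with 1 kb bins, 12.0 without partners within 5 kb and 15.8 to 22.1 with a sample left out from *Mpg*. With the main settings, the genotype difference of the log2 density step from the 4 kb before R1 to R1 was 0.16 from R2. All D3839 samples then lay above all WT samples. From *Mpg* it was 0.26. This difference was -0.021 without neighbouring contacts and -0.061 with single counting from R2, and -0.074 with single counting and 0.0040 without short fragments from *Mpg*. That of the step from HS-29 to the R3 span was -0.58 from both viewpoints with the main settings. It was -0.23 with single counting, -0.76 without short fragments, -0.41 without the fragment of largest ratio and -0.80 with 1 kb bins from R2, and -1.42 with 1 kb bins from *Mpg*. That from R1 to HS-29 was 1.32 with 1 kb bins from *Mpg*, against 0.38 with the main settings.

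Element pairs that changed sign were, from R2, HS-29 with *Hbq1a* (-0.14 to 0.52 with a sample left out, -0.26 without short fragments), HS-29 with itself (-0.21 with single counting), R1 with HS-38 and HS-39 (-0.036 to 0.58 with a sample left out, -0.12 in 3 kb windows), R1 with *Hba-a1* (-0.22 to 0.26 with a sample left out, 0.47 without short fragments, 0.0100 without the fragment of largest ratio, 0.45 with chromosome 11 totals), R1 with *Hba-a2* (-0.46 to 0.23, 0.70 and 0.22 in the same order without the fragment setting), R1 with *Hbq1b* (-0.52 to 0.15 with a sample left out, 0.027 with 1 kb bins, 0.36 with chromosome 11 totals, 0.0033 in 3 kb windows), R1 with HS-29 (-0.10 with single counting), R1 with itself (0.11 with 1 kb bins, 0.18 with chromosome 11 totals), R1 with R4 (-0.13 to 0.30 with a sample left out, -0.34 with single counting), R1 with Rm (-0.14 to 0.60 with a sample left out) and R1 with *Rhbdf1* (-0.13 with 1 kb bins). From *Mpg* they were HS-29 with *Hba-a1* (-0.39 with TMM, -0.65 with DESeq2, -0.15 with length classes, -0.66 without WT replicate 3, -0.16 without neighbouring contacts), HS-29 with Rm (-0.15, -0.59 and -0.019 with the first 3 of these, -0.55 to 5.14 with a sample left out), R1 with *Hbq1b* (-0.39 to 2.70 with a sample left out, -0.11 without short fragments), R1 with HS-29 (-0.0014 without neighbouring contacts, -0.21 with single counting), R1 with itself (-0.12 with DESeq2, -0.15 with single counting, -0.25 without short fragments) and R1 with R4 (-0.22 with TMM, -0.33 with DESeq2, -0.30 to 0.56 with a sample left out, -0.13 with single counting). None of these passed the test under those settings.

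The labels give WT and D3839 the same replicate numbers, but same-numbered samples did not deviate together over segment pairs, with correlations of 0.061, -0.051 and 0.0062 from R2 and -0.012, -0.032 and -0.013 from *Mpg*, so the numbers do not pair the samples. With the replicate block the log2 fold changes were 0.0005 for R1 and 0.52 for HS-29 from R2 and 0.78 and 1.15 from *Mpg*, and apart from the counts above it changed no call of the spans. Of the R2 fragments it added the calls of 32148664-32148701 (adjusted p = 0.00016) and 32146092-32146416 (adjusted p = 0.0192). Counts in the spans limit the precision: they had 131 to 646 contacts in a sample from *Mpg* and 1396 to 3319 from R2, although the *Mpg* matrices held 10237 to 18951 contacts and the R2 matrices 8651 to 16115.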
